A study of Homo sapiens with 8 samples.

Results

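The 44 interferon-stimulated genes described here were found by gene symbol among the 29991 entries of the deposited expression table, and each symbol had an entry. The RNA came from the human line MCF10A, breast epithelial cells that grow without limit in culture but form no tumours. They had received siRNA to LATS1 and LATS2, the kinases of the Hippo pathway that restrain YAP and TAZ (siLATS1/2), siRNA to p53 (sip53), both (siLATS1/2/p53), or a control siRNA (siControl). Each of the 4 groups had 2 libraries of polyadenylated RNA. Per the labels, the library numbers are 2 independent batches of cells, called batch 1 and batch 2 here, and every batch held all 4 groups. No interferon was among the treatments named in the labels, and siRNA transfection was common to every group, siControl included. Values are the deposited log2 expression levels, in which every level below 5 (32 on the linear scale) is listed as 5, called the floor here. A pair of values below always gives batch 1 and then batch 2.

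Interferon-stimulated genes are a first line of defence against viruses that most cell types can switch on. Type I and type III interferons bind their receptors and act through JAK kinases on transcription factors that include STAT2 and IRF9, which bind a DNA element with paired GAAA blocks in the promoters of these genes. Epithelial cells can also start the programme themselves when RNA sensors such as IFIH1 (MDA5) and DDX58 (RIG-I) detect double-stranded RNA, and many products of the programme are sensors, signalling factors and antiviral effectors.

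Promoter sequence was available for 36 of the 44 genes in a RefSeq table on GRCh38.p14 that spans 250 bases before to 50 bases after each gene's start. The paired blocks, spelled GAAA, any 2 bases and GAAA again, were searched on both strands, with overlapping matches counted. The pattern was present for 25 of the 36 genes (69.4%), against 4.38% of the 27305 genes in the table. A match describes letters and does not show that a factor bound there in these cells. DHX58, IRF7, IFIT2, OAS2, OASL, USP18, TRIM22 and MX2 had no promoter in the table. Among those with a promoter, the pattern was absent for IFI35, DDX58, OAS1, STAT2, IRF9, HERC6, XAF1, CMPK2, SAMD9L, UBE2L6 and SP110. The stretches below carry the pattern, in capitals, for genes whose levels are given further down; they were chosen after the levels were seen. They are written 5′ to 3′ on the gene's own strand, so that paired TTTC blocks are the pattern read on the opposite strand.
ISG15: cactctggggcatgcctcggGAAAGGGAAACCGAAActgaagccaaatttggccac
IFIT1: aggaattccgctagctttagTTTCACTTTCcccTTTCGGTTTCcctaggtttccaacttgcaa
IFIT3: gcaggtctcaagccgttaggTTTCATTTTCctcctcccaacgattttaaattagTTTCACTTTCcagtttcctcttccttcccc
IFI6: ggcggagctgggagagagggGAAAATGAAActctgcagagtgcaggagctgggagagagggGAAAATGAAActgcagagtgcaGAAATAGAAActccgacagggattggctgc
IFIH1: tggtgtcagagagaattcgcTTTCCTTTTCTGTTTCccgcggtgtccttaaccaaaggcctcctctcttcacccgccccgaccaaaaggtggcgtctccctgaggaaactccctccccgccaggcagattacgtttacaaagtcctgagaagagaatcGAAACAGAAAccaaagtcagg
DDX60: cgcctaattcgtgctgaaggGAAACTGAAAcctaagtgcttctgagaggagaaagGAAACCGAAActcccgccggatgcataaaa
BST2: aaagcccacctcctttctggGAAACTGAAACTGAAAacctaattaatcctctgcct
SAMD9: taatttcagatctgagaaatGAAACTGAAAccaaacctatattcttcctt
These stretches lie at chr1:1013364-1013419 (plus strand) for ISG15, chr10:89392487-89392549 (plus strand) for IFIT1, chr10:89327821-89327904 (plus strand) for IFIT3 and chr1:27672256-27672368 (minus strand) for IFI6. The others lie at chr2:162318685-162318863 (minus strand) for IFIH1, chr4:168318776-168318860 (minus strand) for DDX60, chr19:17405725-17405780 (minus strand) for BST2 and chr7:93118086-93118135 (minus strand) for SAMD9. In ISG15, BST2 and IFIH1 neighbouring matches overlap and share a block, and IFI6 holds 3 matches within the stretch shown. Several of the genes are neighbours in the genome: 19 of the 44 lie next to another of them in the RefSeq order of protein-coding genes, in 10 pairs such as IFIT2 and IFIT3, OAS1 and OAS3, PARP9 and DTX3L, and SAMD9 and SAMD9L. The kit did not keep strand, so reads from overlapping neighbours cannot be told apart.

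The siRNA targets went with the labels. LATS1 stood at 7.93 and 8.10 in siLATS1/2 cells and at 7.97 and 7.90 in siLATS1/2/p53 cells, against 9.87 and 9.94 in sip53 and 9.55 and 9.64 in siControl cells. CDKN1A, a classical p53 target, stood at 9.82 and 10.06 in sip53 cells and at 9.89 and 10.16 in siLATS1/2/p53 cells, against 12.88 and 13.07 in siLATS1/2 and 12.29 and 12.83 in siControl cells. Depth was not given and was estimated from the spacing of low values at 11.33 to 37.06 M reads a library. All 9 epithelial markers examined were above the floor in all 8 libraries. Of 9 blood markers, CD14, CD68 and LCP1 were above it and PTPRC, CD3E and SPI1 were at it throughout, and the 4 markers of plasmacytoid dendritic cells, a professional source of interferon, were at the floor in all 8 libraries. In bulk RNA, fewer cells that express a gene and less RNA per cell cannot be told apart.

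Of the 44 genes, 39 exceeded the floor in 2 libraries or more and were tested with the 12315 entries that passed the same filter. RTP4, EPSTI1 and IRF9, the DNA-binding partner of STAT2, were listed at the floor in all 8 libraries. XAF1 and MX2 were above it in a single library, siLATS1/2 batch 1, at 5.37 and 6.03. Only 24 were above the floor in all 8 libraries, and 13 did not exceed it in either siControl library. A difference from a floored value understates the difference in level. The floor also hides the spread between floored libraries, so the SE and p of such genes leave that spread out. A gene that is high in some libraries passed the filter through them, so some counts are also given for the 24. Counts given for the 39 alone do not allow for this.

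**Figure D1:**
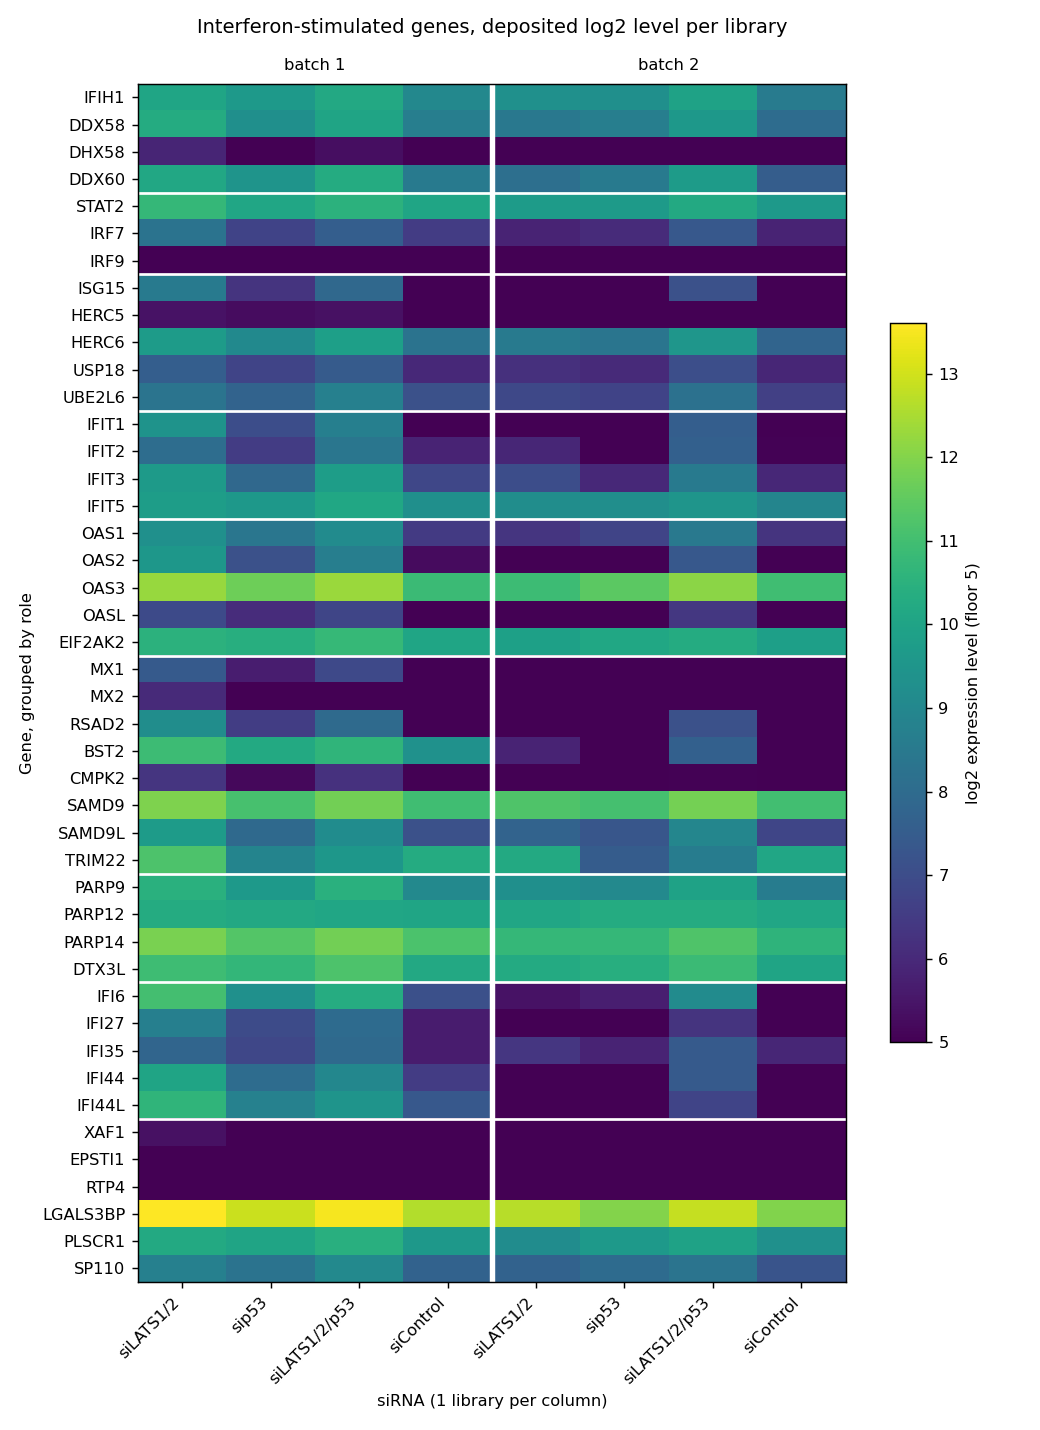
Heat map of the deposited log2 level (colour, from the floor of 5 upward) of the 44 interferon-stimulated genes, grouped by role (rows), in each of the 8 libraries (columns, by siRNA group and batch). Levels compare libraries within a row, not genes; the siLATS1/2 library of batch 1 has 41 of the 44 genes above the floor and the siLATS1/2 library of batch 2 has 27.

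Cells with both knockdowns had higher levels of most of these genes than siControl cells. Of the 39 tested genes, 38 had a fitted difference above 0, against 60.7% of all entries tested, and the median difference was 1.37 on the log2 scale, against 0.08 over all entries tested. With siRNA group as the only term, limma called 6 of the 39 higher (background 9.07% of entries) and none lower (background 5.48%), with 21 at an unadjusted p under 0.05. With cell batch as a block, 33 were called higher (background 25.5%) and TRIM22 was called lower (background 13.8%). Of the 24 genes above the floor everywhere, 22 were called higher with the block (background 25.9% of entries above the floor everywhere). At least 2-fold higher levels in both batches were seen for 25 of the 39, against 2.1% of entries, and 35 were above 0 in both batches, against 47% of entries. Of the 24, 23 were above 0 in both batches (background 47.9%). The 6 calls made without the block depended on single libraries. Their number was 1 without siControl batch 1, 0 without siControl batch 2, 21 without siLATS1/2 batch 1, 20 without siLATS1/2 batch 2, 3 without either sip53 library, and 0 without either siLATS1/2/p53 library.

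**Figure D2:**
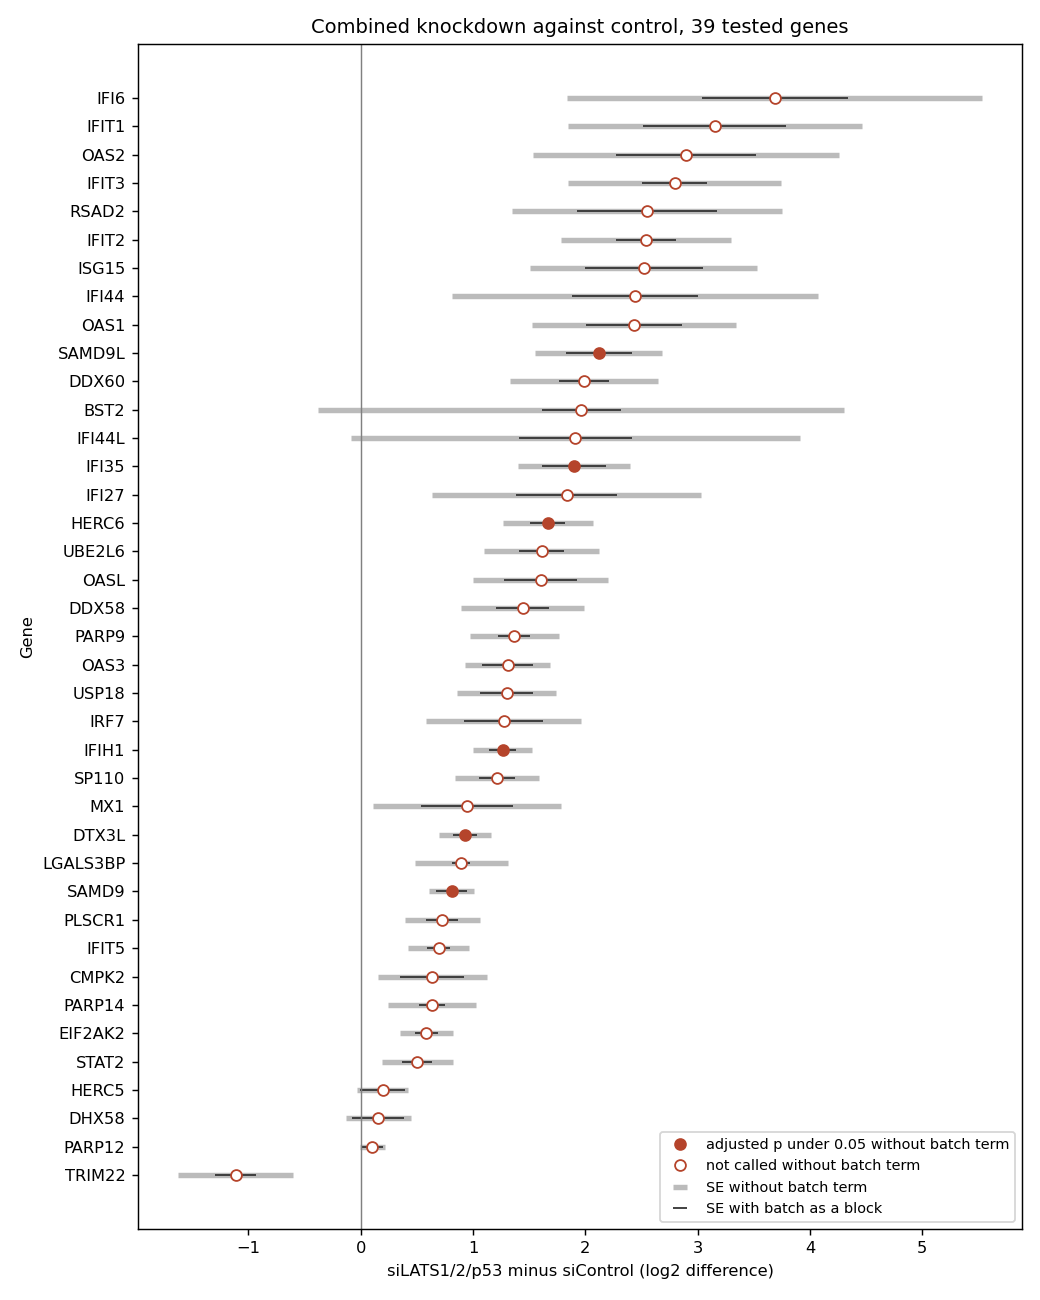
Difference in log2 level between siLATS1/2/p53 and siControl cells for the 39 tested genes, ordered by size; points show the fitted difference, filled where called without the block, with thick grey bars for its SE without the block and thin dark bars for its SE with it. TRIM22 is the 1 gene below 0, and 38 are above it.

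Among the RNA sensors, IFIH1 rose, and DDX60 and DDX58 rose with the batch block. IFIH1 (MDA5), a sensor of long double-stranded RNA, stood at 10.06 and 9.30 in siLATS1/2, 9.61 and 9.30 in sip53, 10.19 and 9.94 in siLATS1/2/p53 and 9.02 and 8.59 in siControl cells. Both siLATS1/2/p53 values were above both siControl values, and siControl cells were lowest in each batch. The difference between siLATS1/2/p53 and siControl was 1.26 ± 0.27 (SE, n = 2 each, limma adjusted p = 0.0218, and 1.86e-06 with the block). DDX60, a helicase linked to RNA sensing, stood at 10.16 and 8.15 in siLATS1/2, 9.46 and 8.52 in sip53, 10.30 and 9.73 in siLATS1/2/p53 and 8.53 and 7.53 in siControl cells. DDX58 (RIG-I), which detects RNA with a triphosphate end, stood at 10.28 and 8.45 in siLATS1/2, 9.28 and 8.67 in sip53, 10.01 and 9.60 in siLATS1/2/p53 and 8.67 and 8.05 in siControl cells. In both genes the siLATS1/2/p53 values lay above the siControl values, while siLATS1/2 batch 2 lay below siControl batch 1. Their differences were 1.99 ± 0.66 (adjusted p = 0.0870 by limma, 1.09e-05 with the block) and 1.44 ± 0.55 (adjusted p = 0.123 by limma, 0.000271 with the block). DHX58 (LGP2), the remaining sensor, was above the floor in batch 1 of siLATS1/2 and siLATS1/2/p53, at 5.88 and 5.31, and at the floor elsewhere, and it was not called in either fit.

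The 2 signalling genes above the floor, STAT2 and IRF7, passed only with the block. STAT2, a transcription factor downstream of the interferon receptors, stood at 10.72 and 9.72 in siLATS1/2, 10.08 and 9.70 in sip53, 10.51 and 10.21 in siLATS1/2/p53 and 10.06 and 9.66 in siControl cells. IRF7, the factor that amplifies type I interferon production, stood at 8.27 and 5.87 in siLATS1/2, 6.75 and 6.06 in sip53, 7.56 and 7.38 in siLATS1/2/p53 and 6.53 and 5.87 in siControl cells. The STAT2 level of siLATS1/2 batch 2 lay below siControl batch 1, and IRF7 was equal to 2 decimals in siLATS1/2 and siControl cells of batch 2. Between siLATS1/2/p53 and siControl cells, STAT2 differed by 0.50 ± 0.32 (limma adjusted p = 0.333, 0.00830 with the block). IRF7 differed by 1.27 ± 0.69 (limma adjusted p = 0.259, 0.0111 with the block).

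The ISG15 system attaches the ubiquitin-like protein ISG15 to other proteins and removes it again. HERC6, a HECT-domain E3 ligase that in mouse is the main ISG15 ligase, rose. It stood at 9.72 and 8.56 in siLATS1/2, 9.07 and 8.34 in sip53, 9.86 and 9.51 in siLATS1/2/p53 and 8.26 and 7.77 in siControl cells, with siControl lowest in each batch and siLATS1/2/p53 highest. The difference was 1.67 ± 0.40 between siLATS1/2/p53 and siControl (limma adjusted p = 0.0335, 1.90e-06 with the block). UBE2L6, the E2 enzyme of the system, stood at 8.31 and 6.87 in siLATS1/2, 7.74 and 6.73 in sip53, 8.76 and 8.22 in siLATS1/2/p53 and 7.13 and 6.63 in siControl cells. USP18, which removes ISG15 and dampens receptor signalling, stood at 7.57 and 6.20 in siLATS1/2, 6.76 and 6.04 in sip53, 7.46 and 7.06 in siLATS1/2/p53 and 6.0 and 5.92 in siControl cells. For both, each siLATS1/2/p53 value exceeded each siControl value, and the siLATS1/2 and sip53 values of batch 2 lay within the siControl range for UBE2L6 and just above it for USP18. UBE2L6 differed by 1.61 ± 0.51 (limma adjusted p = 0.0769, 2.20e-05 with the block), and USP18 by 1.30 ± 0.44 (limma adjusted p = 0.0915, 0.000673 with the block). ISG15 itself, named here for its levels and not by the fixed rule, stood at 8.54 and 5 in siLATS1/2, 6.30 and 5 in sip53, 7.91 and 7.13 in siLATS1/2/p53 and 5 and 5 in siControl cells. It did not exceed the floor in siControl cells or in batch 2 of the single knockdowns, so its fitted 2.52 ± 1.01 is an understatement (limma adjusted p = 0.142, 0.00184 with the block). HERC5, the human ISG15 ligase, lay between 5 and 5.40 in all 8 libraries.

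The IFIT proteins bind viral RNA ends and block its translation. All 4 rose with the block (background 25.5%) and none without it (background 9.07%). IFIT2 stood at 8.08 and 5.92 in siLATS1/2, 6.52 and 5 in sip53, 8.38 and 7.63 in siLATS1/2/p53 and 5.86 and 5.07 in siControl cells. IFIT3 stood at 9.70 and 7.04 in siLATS1/2, 7.91 and 5.99 in sip53, 9.80 and 8.56 in siLATS1/2/p53 and 6.83 and 5.94 in siControl cells. IFIT5 stood at 9.78 and 9.21 in siLATS1/2, 9.60 and 9.24 in sip53, 10.11 and 9.49 in siLATS1/2/p53 and 9.29 and 8.92 in siControl cells. IFIT2 and IFIT3 were 2.53 to 2.97 higher on the log2 scale in siLATS1/2/p53 than in siControl cells of the same batch. IFIT5 was higher in siLATS1/2/p53 cells by 0.82 in batch 1 and 0.57 in batch 2. The fitted differences were 2.54 ± 0.76 for IFIT2 (limma adjusted p = 0.0640, 6.0e-06 with the block) and 2.79 ± 0.95 for IFIT3 (limma adjusted p = 0.0925, 4.46e-06 with the block). That of IFIT5 was 0.69 ± 0.27 (limma adjusted p = 0.133, 0.000103 with the block). IFIT1, also named for its levels, did not exceed the floor in siControl cells and stood at 8.73 and 7.58 in siLATS1/2/p53 cells.

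The enzymes that respond to double-stranded RNA gave the same split between fits. With the block 5 of 5 were called higher (background 25.5%), and without it none (background 9.07%). The OAS enzymes make the short oligoadenylates that activate RNase L. OAS3 stood at 12.29 and 10.91 in siLATS1/2, 11.70 and 11.45 in sip53, 12.32 and 12.11 in siLATS1/2/p53 and 10.85 and 10.97 in siControl cells. OAS1 stood at 9.33 and 6.34 in siLATS1/2, 8.38 and 6.76 in sip53, 9.13 and 8.48 in siLATS1/2/p53 and 6.46 and 6.29 in siControl cells. OASL, a relative without that synthetic activity, stood at 6.92 and 5 in siLATS1/2, 6.09 and 5 in sip53, 6.81 and 6.39 in siLATS1/2/p53 and 5 and 5 in siControl cells. In OAS3 and OASL the siLATS1/2 value of batch 2 was no higher than a siControl value, and in OAS1 it lay between the siControl values. OAS3 differed by 1.31 ± 0.38 between siLATS1/2/p53 and siControl cells (limma adjusted p = 0.0578, 0.000424 with the block). OAS1 differed by 2.43 ± 0.91 (limma adjusted p = 0.119, 0.000521 with the block) and OASL by 1.60 ± 0.60 from floored siControl values (limma adjusted p = 0.121, 0.00149 with the block). EIF2AK2 (PKR), the kinase that halts translation, differed by 0.58 ± 0.23 (limma adjusted p = 0.141, 0.000480 with the block).

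Of the other antiviral effectors, SAMD9 and SAMD9L rose. SAMD9, a host restriction factor for poxviruses, stood at 11.95 and 11.23 in siLATS1/2, 11.11 and 11.08 in sip53, 11.77 and 11.79 in siLATS1/2/p53 and 10.95 and 10.98 in siControl cells. SAMD9L, its neighbour and paralog, stood at 9.73 and 7.73 in siLATS1/2, 7.92 and 7.29 in sip53, 9.19 and 8.96 in siLATS1/2/p53 and 7.13 and 6.78 in siControl cells. In SAMD9 the siLATS1/2 and siLATS1/2/p53 values lay above every sip53 and siControl value, and in SAMD9L siLATS1/2/p53 exceeded both siControl values. SAMD9 differed by 0.81 ± 0.20 (limma adjusted p = 0.0355, 0.000357 with the block) and SAMD9L by 2.12 ± 0.57 (limma adjusted p = 0.0470, 6.94e-05 with the block). MX1, which traps viral nucleocapsids, was above the floor only in batch 1 of the 3 knockdown groups, at 7.45 in siLATS1/2, 5.68 in sip53 and 6.89 in siLATS1/2/p53 cells.

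PARP9 and DTX3L form a complex, and PARP14 is a related mono-ADP-ribosyltransferase. DTX3L rose, and stood at 10.95 and 10.25 in siLATS1/2, 10.69 and 10.38 in sip53, 11.20 and 10.85 in siLATS1/2/p53 and 10.18 and 10.01 in siControl cells. PARP9, its neighbour in the genome, stood at 10.46 and 9.27 in siLATS1/2, 9.66 and 9.05 in sip53, 10.45 and 9.95 in siLATS1/2/p53 and 9.04 and 8.62 in siControl cells. PARP14 stood at 11.86 and 10.73 in siLATS1/2, 11.30 and 10.72 in sip53, 11.76 and 11.24 in siLATS1/2/p53 and 11.15 and 10.58 in siControl cells. DTX3L and PARP9 were higher in siLATS1/2/p53 than in every siControl library, whereas the PARP14 level of siLATS1/2/p53 batch 2 was close to that of siControl batch 1. DTX3L differed by 0.93 ± 0.23 (limma adjusted p = 0.0390, 1.11e-05 with the block), PARP9 by 1.37 ± 0.40 (limma adjusted p = 0.0594, 6.42e-06 with the block) and PARP14 by 0.63 ± 0.39 (limma adjusted p = 0.322, 0.000766 with the block). PARP12 did not pass in any comparison, with values between 10.05 and 10.31 in all 8 libraries.

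Among the small interferon-induced proteins, IFI35 rose. It stood at 7.82 and 6.38 in siLATS1/2, 6.84 and 5.85 in sip53, 7.94 and 7.42 in siLATS1/2/p53 and 5.64 and 5.92 in siControl cells. IFI6, a mitochondrial and endoplasmic reticulum protein that limits flavivirus replication, stood at 11.04 and 5.43 in siLATS1/2, 9.32 and 5.72 in sip53, 10.32 and 9.15 in siLATS1/2/p53 and 7.09 and 5 in siControl cells. IFI27 stood at 8.72 and 5 in siLATS1/2, 6.96 and 5 in sip53, 8.00 and 6.31 in siLATS1/2/p53 and 5.64 and 5 in siControl cells. In all 3 the siLATS1/2/p53 values were above the siControl values, and in IFI6 and IFI27 the siLATS1/2 and sip53 values of batch 2 were at or near the floor. IFI35 differed by 1.90 ± 0.50 (limma adjusted p = 0.0442, 0.000135 with the block), IFI6 by 3.69 ± 1.85 (limma adjusted p = 0.226, 0.000521 with the block) and IFI27 by 1.83 ± 1.20 (limma adjusted p = 0.349, 0.00531 with the block).

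Of the remaining genes, SP110, a nuclear body protein, stood at 8.75 and 7.72 in siLATS1/2, 8.28 and 7.99 in sip53, 9.03 and 8.32 in siLATS1/2/p53 and 7.70 and 7.24 in siControl cells. PLSCR1, a scramblase with antiviral activity, stood at 10.23 and 9.18 in siLATS1/2, 10.01 and 9.64 in sip53, 10.42 and 9.95 in siLATS1/2/p53 and 9.58 and 9.33 in siControl cells. LGALS3BP, a secreted galectin-binding glycoprotein, stood at 13.57 and 12.67 in siLATS1/2, 12.90 and 11.99 in sip53, 13.49 and 12.86 in siLATS1/2/p53 and 12.60 and 11.97 in siControl cells. All 3 were higher in siLATS1/2/p53 than in siControl cells of the same batch, by 0.62 to 1.34. Only with the block did they pass, with differences of 1.21 ± 0.37, 0.73 ± 0.33 and 0.89 ± 0.41 and block-adjusted limma p of 4.26e-05, 0.00126 and 1.53e-06.

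**Figure D3:**
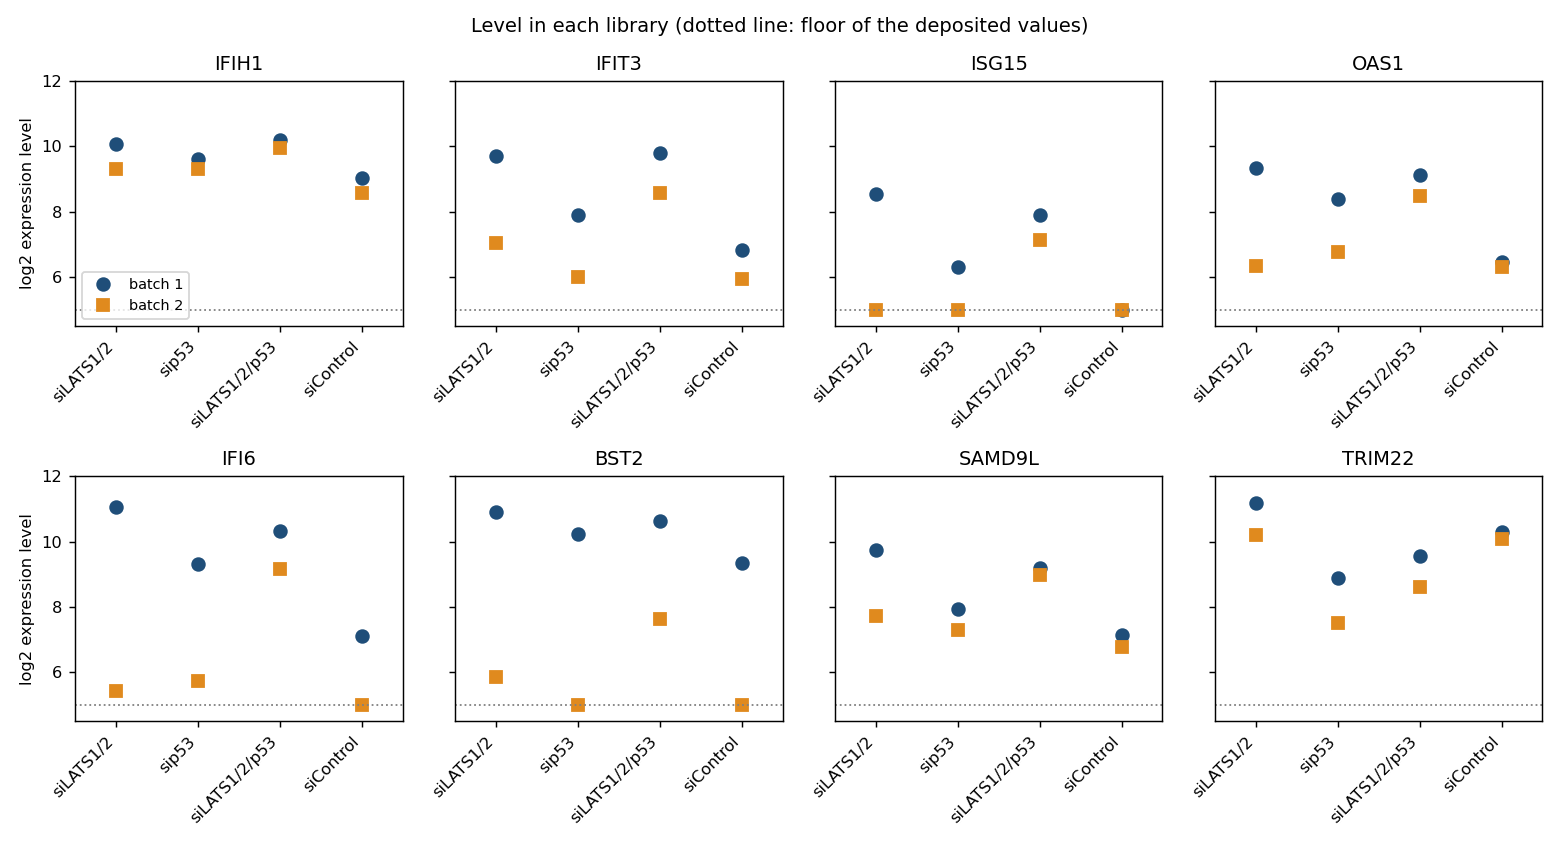
Deposited log2 levels of 8 of the genes by siRNA group, with the libraries of batch 1 and batch 2 marked apart and the floor of 5 drawn as a line. For IFIH1 the siControl libraries stand at 9.02 and 8.59 and the siLATS1/2/p53 libraries at 10.19 and 9.94; for TRIM22 the sip53 libraries are lowest at 8.88 and 7.52.

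LATS1/2 knockdown alone gave a difference that was large in batch 1 and small in batch 2. Against siControl, the median over the 39 tested genes was 1.57 in batch 1 and 0.12 in batch 2, and 0.96 in the fit, against -0.07 over all entries tested. Genes at the floor in both groups of batch 2 show no difference there. Over the 24 genes above the floor everywhere, the medians were 1.12 in batch 1 and 0.26 in batch 2. Of these 24, 21 were higher in both batches (background 26.5%), as were 24 of the 39 (background 26.6%). At least 2-fold higher levels were seen for 27 genes in batch 1 (background 2.06%) and for 1 in batch 2 (background 1.36%). Limma called none of the 39 higher (background 2.81%) or lower (background 4.89%), with 6 at an unadjusted p under 0.05. With the block, 31 were called higher (background 10.5%), 19 of them among the 24 above the floor everywhere (background 10.3%). That count was 8 without siLATS1/2 batch 1 and 12 without siControl batch 1. IFIT3, with the largest difference in batch 2, was higher by 2.87 in batch 1 and 1.10 in batch 2 (1.98 ± 0.95, limma adjusted p = 0.244, 0.000166 with the block). IFIH1 was higher by 1.05 and 0.72 (0.88 ± 0.27, limma adjusted p = 0.0892, 8.26e-05 with the block) and LGALS3BP by 0.97 and 0.70 (0.84 ± 0.41, limma adjusted p = 0.258, 4.88e-06 with the block). IFIT1, in contrast, was higher by 4.42 in batch 1 and at the floor in both groups in batch 2. IFI6 was higher by 3.95 and 0.43.

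**Figure D4:**
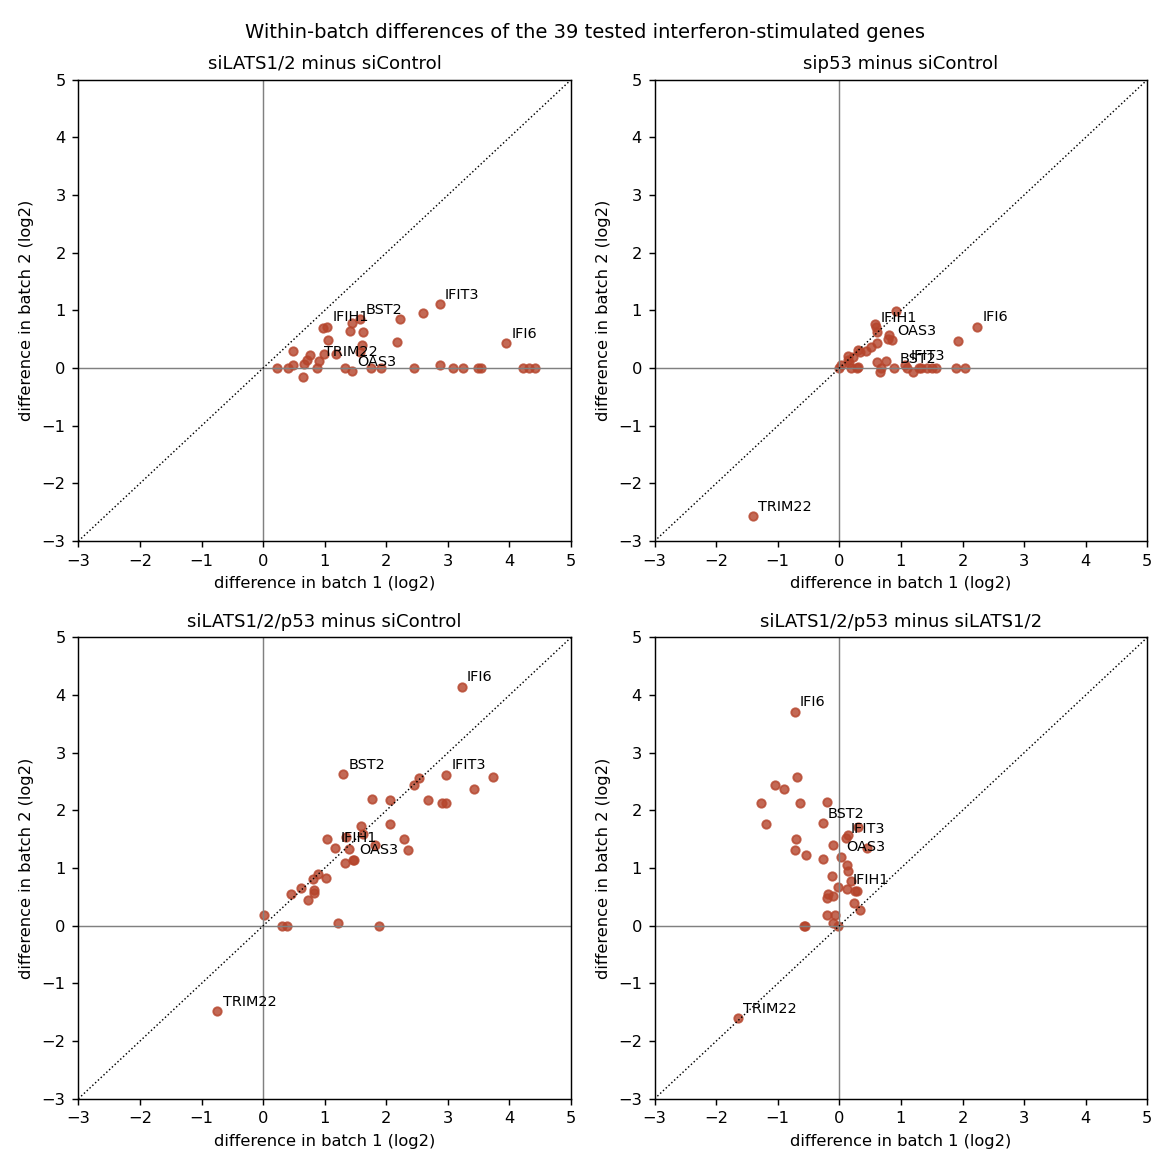
Difference in log2 level from siControl within each batch (batch 1 on one axis, batch 2 on the other) for the 39 tested genes, with a panel for each knockdown against siControl and for siLATS1/2/p53 against siLATS1/2; the dotted line marks equal differences. With siLATS1/2 the differences of batch 1 (median 1.57) exceed those of batch 2 (median 0.12), and with siLATS1/2/p53 the medians are 1.46 and 1.35.

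After p53 knockdown alone, 37 of the 39 genes had a fitted difference from siControl above 0, against 60.3% of entries, and of the other 2 TRIM22 was below 0 and DHX58, at the floor in both groups, was at 0. The median difference from siControl was 0.52, against 0.06 over all entries tested, and 0.67 in batch 1 and 0.09 in batch 2. Genes at the floor in both groups of batch 2 show no difference there. Over the 24 genes above the floor everywhere, the medians were 0.59 in batch 1 and 0.29 in batch 2. Of these 24, 22 were higher in both batches (background 47.7%), as were 23 of the 39 (background 46%). Limma called none of the 39 higher (background 1.76%) or lower (background 2.1%), with 2 at an unadjusted p under 0.05. With the block, 9 were called higher (background 16%): DDX60, DTX3L, EIF2AK2, HERC6, IFIH1, IFIT5, OAS3, PARP9 and SP110. The count was 3 without siControl batch 1 or without sip53 batch 2, and it was 20 or 21 without siControl batch 2 or either siLATS1/2 library. DDX60 was higher by 0.93 in batch 1 and 0.99 in batch 2 (0.96 ± 0.66, limma adjusted p = 0.446, 0.00677 with the block). OAS1 was higher by 1.92 and 0.47 (1.19 ± 0.91, limma adjusted p = 0.498, 0.0545 with the block).

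TRIM22, an antiviral ubiquitin ligase that is a known p53 target as well as an interferon-stimulated gene, was called lower with the block wherever p53 siRNA was compared with its absence. It stood at 11.19 and 10.21 in siLATS1/2, 8.88 and 7.52 in sip53, 9.55 and 8.60 in siLATS1/2/p53 and 10.29 and 10.09 in siControl cells. The 4 libraries with p53 siRNA were all below the 4 without it. Against siControl the difference was -1.99 ± 0.51 in sip53 cells (limma adjusted p = 0.0832, 6.12e-06 with the block) and -1.11 ± 0.51 in siLATS1/2/p53 cells (limma adjusted p = 0.191, 0.000294 with the block). With the block it was called lower in both, the only one of the 39 that was (background 10% in sip53 cells). Adding p53 siRNA to LATS1/2 siRNA gave -1.63 ± 0.51 (limma adjusted p = 0.0747, 1.64e-05 with the block). Adding LATS1/2 siRNA to p53 siRNA gave 0.88 ± 0.51 (limma adjusted p = 0.428, 0.00340 with the block).

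Against siLATS1/2 cells, the direction of the difference in siLATS1/2/p53 cells changed between the batches for part of the genes. Of the 39 genes, 22 were lower in batch 1 and higher in batch 2, against 9.6% of entries, and the medians were -0.11 and 1.05. Among the 24 above the floor everywhere, 11 showed this (background 9.4%). Of those 24, 12 were higher in both batches (background 59.4%), and the medians were 0.007 in batch 1 and 0.73 in batch 2. Over the 39, the fitted median was 0.43, against 0.15 over all entries tested. Limma called none higher (background 11.3%) or lower (background 3.22%), with 1 at an unadjusted p under 0.05. With the block, 12 were called higher (background 33.8%), a share of the 39 close to the background, and TRIM22 lower (background 9.72%). The count of 12 moved to 31 without siLATS1/2 batch 1, to 0 without siLATS1/2 batch 2, to 8 without siLATS1/2/p53 batch 1, to 3 without siLATS1/2/p53 batch 2 and to 3 after rescaling of the libraries. IFI6 was lower by 0.73 on the log2 scale in batch 1 of siLATS1/2/p53 than in siLATS1/2 cells and higher by 3.71 in batch 2. UBE2L6 was higher in both, by 0.45 and 1.35 (0.90 ± 0.51, limma adjusted p = 0.258, 0.00243 with the block).

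Against sip53 cells, siLATS1/2/p53 cells were higher in both batches for 35 of the 39 genes, against 38.2% of entries, and for 23 of the 24 above the floor everywhere (background 38.8%). The medians were 0.75 in batch 1 and 1.09 in batch 2, and 0.88 in the fit, against 0.01 over all entries tested. Limma called none higher (background 2.54%) or lower (background 1.12%), with 7 at an unadjusted p under 0.05, and 27 were called higher with the block (background 12.7%). That count was 17 without sip53 batch 2 and 10 without siLATS1/2/p53 batch 2. SAMD9 had the smallest p without the block (0.68 ± 0.20, limma adjusted p = 0.123, 0.00248 with the block). LGALS3BP differed by 0.73 ± 0.41 (limma adjusted p = 0.411, 2.10e-05 with the block) and IFIT2 by 2.24 ± 0.76 (limma adjusted p = 0.173, 4.12e-05 with the block). The comparisons with siControl share its libraries, and those with siLATS1/2/p53 share its libraries, so their counts are not independent of each other.

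The interaction asks whether LATS1/2 siRNA changed a gene differently in cells with and without p53 siRNA. Limma called none of the 39 in either direction, without the block (background 0% higher and 0% lower) or with it (background 1.75% higher and 0.276% lower), and none had an unadjusted p under 0.05 in either fit. The fitted median was -0.06, against 0.10 over all entries tested, and it was -0.79 in batch 1 and 0.72 in batch 2. It lay below 0 in batch 1 and above 0 in batch 2 for 32 of the 39 genes, against 17.7% of entries. The same held for 20 of the 24 genes above the floor everywhere (background 17.4%). With 1 library for each siRNA and batch, that change of sign could not be tested.

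The genes also differed between the batches of cells, in each siRNA group. With siRNA group in the fit, limma called 34 of the 39 lower in batch 2 than in batch 1 (background 17.8%) and none higher (background 12.5%), with a median of -0.80 against -0.03 over all entries tested. Of the 24 above the floor everywhere, 21 were called lower (background 17.6%). The median difference was -1.44 in siLATS1/2, -0.72 in sip53, -0.54 in siLATS1/2/p53 and -0.35 in siControl cells. Batch 2 was at least 2-fold below batch 1 for 29 genes in siLATS1/2 cells (background 1.53%), 15 in sip53 cells (background 1.52%), 10 in siLATS1/2/p53 cells (background 1.34%) and 5 in siControl cells (background 1.27%). BST2 (tetherin), which holds budding virions at the cell surface, was named for this difference. It stood at 10.90 and 5.85 in siLATS1/2, 10.23 and 5 in sip53, 10.63 and 7.63 in siLATS1/2/p53 and 9.34 and 5 in siControl cells. Every batch 1 value of BST2 lay above every batch 2 value, and the difference was -4.41 ± 0.25 (limma adjusted p = 4.42e-08). IFI44L differed by -3.62 ± 0.36 (limma adjusted p = 8.31e-06) and LGALS3BP by -0.77 ± 0.06 (limma adjusted p = 5.46e-07). PARP12, SAMD9, OAS3, DHX58 and HERC5 were not called.

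**Figure D5:**
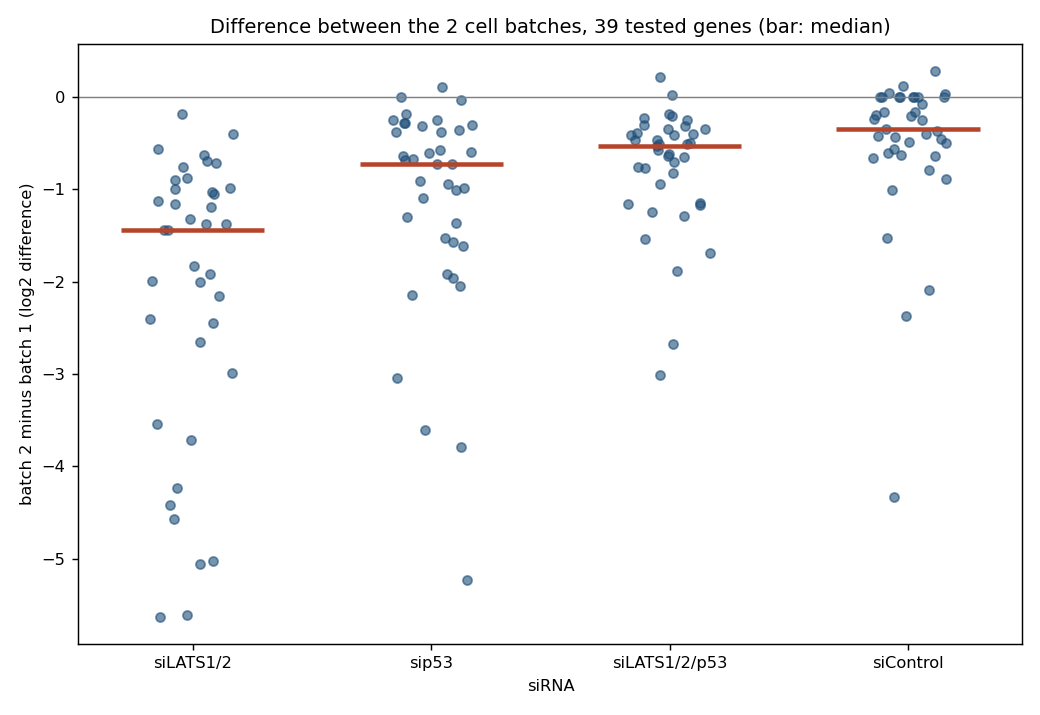
Difference in log2 level, batch 2 minus batch 1, of the interferon-stimulated genes within each siRNA group, with the median of each group marked. The medians are -1.44 in siLATS1/2, -0.72 in sip53, -0.54 in siLATS1/2/p53 and -0.35 in siControl cells.

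In batch 1 the siLATS1/2 library was the highest of the 4 for 26 of the 39 genes (background 16.8%) and siLATS1/2/p53 for 13 (background 37.2%). In batch 2 siLATS1/2/p53 was the highest for 34 (background 31.7%), siLATS1/2 for 1, which was TRIM22 (background 14.6%), and sip53 for 1, which was PARP12 (background 31.5%). The siControl library was lowest or tied for lowest for 38 genes in batch 1 (background 26.3%) and 33 in batch 2 (background 23.2%). A gene at the floor in siControl is lowest or tied in any case. Of the 39 genes, 8 were at the floor in both siControl libraries. IFI6, IFI27, IFI44, IFI44L, OAS2 and BST2 were at it in siControl batch 2 only. These counts therefore partly follow from the floor, and more so in batch 2. The estimated depth of the batch 1 libraries was 37.06 M reads in siLATS1/2, 29.45 in sip53, 11.33 in siLATS1/2/p53 and 12.12 in siControl cells, and in batch 2 it was 22.45, 25.58, 30.82 and 25.83 M in the same order. Some markers of other cell types and of epithelial cells also differed between batches, not all in the same direction. LCP1, a leukocyte actin-bundling protein, stood between 9.97 and 10.71 in batch 1 and between 8.09 and 9.37 in batch 2. DCN, a fibroblast proteoglycan, stood between 7.87 and 9.86 in batch 1 and between 5 and 7.02 in batch 2. The blood marker CD68 stood between 8.78 and 9.26 in batch 1 and between 8.91 and 9.35 in batch 2. For CD14 the ranges were 7.92 to 9.06 and 7.49 to 8.61, and for the fibroblast marker COL1A1 7.04 to 7.75 and 6.60 to 7.61. Of the epithelial markers, KRT14 stood at 12.97 and 13.83 and KRT18 at 11.04 and 10.77 in siControl cells. On the linear scale the 9 blood markers summed to 1228 to 2324 in siLATS1/2, 1190 to 2055 in sip53, 1177 to 2233 in siLATS1/2/p53 and 1135 to 2219 in siControl cells. The 8 fibroblast markers, of which COL1A1 and DCN were above the floor, summed to 143 to 385 in siLATS1/2, 104 to 809 in sip53, 149 to 473 in siLATS1/2/p53 and 261 to 1026 in siControl cells. The part of depth or of these markers in the batch difference was not tested.

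Lists of related genes are set beside the shares called over all entries in siLATS1/2/p53 minus siControl, which were 9.07% higher and 5.48% lower without the block and 25.5% and 13.8% with it. Of 11 interferon gene symbols looked up, 8 had an entry: IFNB1, IFNE, IFNK, IFNW1, IFNG, IL28A, IL28B and IL29. These 8 were at the floor in all 8 libraries, so a level below the floor could not be seen. The interferon alpha genes were not among those looked up. Of 16 tested receptor and signalling genes, 2 were called higher and 4 lower in siLATS1/2/p53 than in siControl cells, and 4 higher and 5 lower with the block, with a median difference of 0.15 against 0.08 over all entries. IRF1, a transcription factor of the interferon response, rose by 0.88 ± 0.15 (limma adjusted p = 0.00992). IL10RB, a subunit of the type III interferon receptor, differed by -0.88 ± 0.19 (limma adjusted p = 0.0251), and the kinases JAK1 and JAK2 by -0.33 ± 0.07 and -0.56 ± 0.13 (limma adjusted p = 0.0274 and 0.0340). Of 18 tested adaptors and enzymes of nucleic acid sensing, 4 were called higher in siLATS1/2/p53 cells, among them the kinase IKBKE (1.01 ± 0.12, limma adjusted p = 0.00305) and the nucleotide hydrolase SAMHD1 (1.31 ± 0.31, limma adjusted p = 0.0312), and none lower. With the block, 11 of the 18 were called higher and 1 lower, and the median difference was 0.39.

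Of 31 other interferon-stimulated genes tested, 10 were called higher and none lower in siLATS1/2/p53 than in siControl cells (background 9.07% and 5.48%). With the block, 20 were called higher and none lower (background 25.5% and 13.8%). Their median difference was 0.47. TRIM14, an adaptor of antiviral signalling, rose by 0.84 ± 0.13 (limma adjusted p = 0.00840) and TRIM21, an intracellular antibody receptor, by 0.78 ± 0.13 (limma adjusted p = 0.00899). IFITM2 and IFITM3, which block virus entry, were called higher by 0.92 ± 0.10 and 1.20 ± 0.19 (limma adjusted p = 0.00239 and 0.00814), but these genes are near-identical copies and their reads could be divided between them in either way. In siLATS1/2 cells 2 of the 31 were called higher than in siControl cells (background 2.81%), and 14 higher and 2 lower with the block (background 10.5% and 21.4%). In sip53 cells none was called higher (background 1.76%), and 8 were called higher and 1 lower with the block (background 16% and 10%). Of 15 tested genes of MHC class I antigen presentation, 5 were called higher in siLATS1/2/p53 than in siControl cells without the block (background 9.07%). With it 15 were (background 25.5%), and the median difference was 0.73. The immunoproteasome subunit PSMB8 rose by 1.25 ± 0.21 (limma adjusted p = 0.0108) and the peptide transporter subunit TAP2 by 0.53 ± 0.08 (limma adjusted p = 0.00698). PSMB9 did not exceed the floor in siControl cells and stood at 7.66 and 7.35 in siLATS1/2/p53 cells. Of the 16 genes listed as targets of interferon gamma, 7 were tested, and their median difference between siLATS1/2/p53 and siControl cells was 0.88. Of the 7, 1 was called higher without the block (background 9.07%), which was IRF1, and 6 with it (background 25.5%). CXCL9, CXCL10 and CXCL11 were at the floor in all 8 libraries.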

How the data were processed

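The authors deposited log2 expression levels from 8 libraries, with every level below 5 set to 5, and the columns of 8 of 8 single-library files equalled those of the series table. Per the labels' protocols, polyadenylated RNA went into TruSeq RNA v2 libraries, a kit without strand information. The submitters' processing notes name TopHat and hg19. No source used here gives the counter, annotation, scaling or reason for the floor, and base 2 was taken from the spacing of low values. Counts could not be recovered, which left count models out. Depth was estimated from that spacing, and the floor stood for 14.56 to 50 reads.

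For the tests, limma 3.58.1 (R 4.3.3) was fitted to all 8 libraries at once, with siRNA group as the term, a trended prior variance and 4 residual degrees of freedom. The 12315 entries that exceeded the floor in 2 or more libraries entered. Benjamini-Hochberg adjustment ran across all of these, and an adjusted p under 0.05 was called. No pseudocount was added. The labels say that a library number is a batch of cells, so the numbers pair the libraries: deviations of same-numbered libraries from their group means correlated at 0.565 to 0.726 over the pairs of groups. The fit with batch as a block had 3 residual degrees of freedom and is printed beside counts and genes whose call it changes in the comparisons described. With 2 libraries a group, p-values without the block rest on the spread between these batches. Those with the block rest on the spread that is left after a batch shift common to all groups is taken out. Among the entries tested, 28 repeat the symbol of another tested entry, and none of the 44 genes is among them. The procedure was tested on simulated data with the same spread in every entry and a batch shift common to all groups. Batch shifts that differ between groups, as these genes had, were not simulated.

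The 44 genes, the lists and the tests were chosen with earlier results of these data known. Levels in every library are given for genes called without the block and, in each role, for up to 3 genes with the smallest p in siLATS1/2/p53 against siControl, and up to 4 called genes are named from other lists. Alternatives were other filters, pseudocounts, rescaling by medians of ratios, the block, the groups compared alone, no trend and leaving libraries out. Some results are not reported here.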

Additional observations from a re-analysis of the deposited data

Results flagged for a closer look

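The sign of some comparisons differed between the batches of cells. In 22 of the 39 tested genes, siLATS1/2/p53 cells were below siLATS1/2 cells in batch 1 and above them in batch 2. The interaction of LATS1/2 and p53 siRNA was below 0 in batch 1 and above 0 in batch 2 in 32 of the 39. Each of these rests on 1 library for a siRNA and batch, so the difference between the batches was not tested. No single sample could be set against its group for distance, since each group has 2 libraries.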

How the results depend on the processing

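The direction of the median over the tested genes held under each alternative for siLATS1/2/p53 minus siControl (main 1.37) and siLATS1/2/p53 minus sip53 (main 0.88), and the counts did not. With both groups compared alone, 12 genes were called higher in siLATS1/2/p53 than in siControl cells, against 6; without the trend 2 were, and without the 2 libraries of lowest estimated depth 0. The median of that comparison was 1.27 with only genes above the floor in all libraries and 1.29 after rescaling, with or without the block. That of siLATS1/2/p53 minus sip53 was 0.61 without the 2 shallowest libraries. Genes called lower in batch 2 numbered 34 of 39, against 22 of the 24 that the strictest filter keeps and 22 of 39 without the trend.

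With the replicate block, the genes called higher numbered 31 in siLATS1/2 minus siControl, 9 in sip53 minus siControl, 33 in siLATS1/2/p53 minus siControl, 12 in siLATS1/2/p53 minus siLATS1/2 and 27 in siLATS1/2/p53 minus sip53. With the block and rescaling they numbered 33, 6, 33, 3 and 24 in that order. The gene called lower, 1 with the block and 1 with block and rescaling in sip53 minus siControl, siLATS1/2/p53 minus siControl and siLATS1/2/p53 minus siLATS1/2, was TRIM22.

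Leaving out each library in turn gave 0 to 5, 0 to 0, 0 to 21, 0 to 1 and 0 to 2 genes called higher in the same order, and 0 to 1 called lower in siLATS1/2/p53 minus siLATS1/2. Genes called lower in batch 2 numbered 30 to 35. Medians spanned 0 to 1.70, 0 to 0.82, 1.13 to 1.65, -0.36 to 1.30 and 0.45 to 1.34, with -0.75 to 0.72 for the interaction and -0.95 to -0.52 for the batches. With the block and each library left out, chosen after seeing the data, the counts called higher spanned 8 to 36, 3 to 21, 24 to 35, 0 to 31 and 10 to 34, with 0 to 1 for the interaction. Values of single libraries left out were 28 without siLATS1/2/p53 replicate 1 in the first comparison, 7 without sip53 replicate 1 and 20 and 20 without a siLATS1/2 library in the second, 16 and 16 without a siControl library and 15 and 15 without a sip53 library in the fourth, and 17 without sip53 replicate 2 and 19 without siLATS1/2/p53 replicate 1 in the fifth. Those called lower spanned 1 to 5 in siLATS1/2/p53 minus siLATS1/2, 0 to 5 for the interaction and 1 to 1 in sip53 and siLATS1/2/p53 minus siControl. Those medians spanned 0.38 to 1.44, 0.052 to 0.78, 1.08 to 1.77 (1.67 without siControl replicate 2, 1.24 without siLATS1/2/p53 replicate 2), -0.11 to 1.09 and 0.70 to 1.17, with -0.53 to 0.47 for the interaction.

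Single genes that changed sign when a library was left out spanned, in siLATS1/2 minus siControl, -1.32 to 3.74 (BST2), -0.32 to 3.40 (IFI27), -0.76 to 4.26 (IFI44), -1.18 to 4.44 (IFI44L), -0.61 to 5.0 (IFI6), -0.035 to 2.95 (OAS1), -0.12 to 4.44 (OAS2), -0.14 to 0.99 (PARP14) and -0.012 to 1.43 (UBE2L6). In siLATS1/2/p53 minus siLATS1/2 they spanned -0.15 to 1.86 (DDX60), -0.032 to 1.13 (HERC6), -0.075 to 2.09 (IFIT2), -0.52 to 2.14 (IFIT3), -0.0019 to 0.62 (IFIT5), -0.073 to 1.30 (OAS3), -0.042 to 1.01 (PLSCR1) and -0.071 to 0.96 (SP110). IFIT5 was at -0.0019 without the 2 shallowest libraries, and OAS3 at -0.016 with the block and without siLATS1/2 replicate 2. BST2 spanned -0.21 to 4.13 in siLATS1/2/p53 minus siControl and -1.10 to 4.13 in siLATS1/2/p53 minus sip53. The cause was not tested. A group with 1 library left was assumed to vary like the others, and without the block a left-out library lets batch differences into its comparison. The floor hides changes of low genes.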
